A study of Mus musculus with 10 samples.

Results

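The 5 GATA factor genes Gata2, Gata3, Gata4, Gata5 and Gata6 were examined for trimethylation of lysine 27 on histone H3 (H3K27me3) in long-term hematopoietic stem cells, called LT-HSCs below, out of 21938 protein-coding genes of the mouse annotation. The genes were chosen by name, and each was followed over a gene window, which joins its body with a promoter reaching 5 kb ahead of and 100 bp past each transcription start in the GRCm38 annotation. A gene was called in a library when a peak overlapped its window by at least 1 bp. The H3K27me3 data came from CUT&Tag, in which an antibody guides the Tn5 transposase to the marked chromatin and the inserted fragments are sequenced. LT-HSCs were sorted from E14.5 fetal liver as LSK CD48-CD150+ cells (LSK: lineage-negative, SCA1+ and cKIT+), 3 libraries from IκBα WT and 3 from IκBα KO embryos. IκBα, encoded by Nfkbia, is the inhibitor that holds NF-κB in the cytoplasm. The KO is a constitutive knockout of that gene in every tissue, carried by embryos of heterozygous matings, and a library was made from a small number of sorted cells. Cells came from several embryos of each genotype. The study's texts differ on how many independent experiments the libraries stand for, and which embryos went into a library is not given in the sources used here, so the p-values below measure the spread between these libraries, which may be technical in part.

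GATA factors bind DNA through 2 zinc fingers that recognise the letters GATA. Gata2 maintains hematopoietic stem cells, and Gata3 directs T cells and is also used in other tissues such as the ear and the sympathetic nervous system. Gata4, Gata5 and Gata6 form the other branch of the family and drive heart and endoderm formation. H3K27me3 is laid down by Polycomb repressive complex 2 (PRC2) and marks developmental genes that a cell keeps silent. It often spans CpG-rich promoters, which PRC2 favours where transcription is absent. In a bulk library a shorter or missing peak can come from fewer cells with the mark or from less of it per cell, and these cannot be told apart.

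The 5 genes fell into 3 patterns. Gata2 had no H3K27me3 peak in any of the 6 libraries. Gata4 and Gata6 had a peak in 6 of 6. Gata3 and Gata5 had one in 5 of 6, and in both the library without a peak was WT 3. Over all protein-coding genes, 17.5% had a peak in at least 1 library, 8.09% in at least 5 and 3.47% in all 6. When promoter windows alone were counted, Gata4 and Gata6 again had a peak in all 6 libraries, as did 2.65% of protein-coding genes. These shares are given for orientation, since 5 genes chosen by name are no sample of the genome.

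The libraries differed in what they could show. Peaks numbered 1047 in WT 3 and 2325 in KO 3, the pair sequenced with 50 bp reads, and 4160 to 6013 in the other 4, sequenced with 75 bp reads. Of the 1679 protein-coding genes with a peak in each of the other 5 libraries, 917 (54.6%) had none in WT 3, so Gata3 and Gata5 shared their missing peak in that library with most such genes. The peak lists hold called regions alone, so the signal under an uncalled promoter was not measured here and a gene without a peak may still carry the mark below the calling threshold. Nfkbia itself had no peak in any library, and H3K27me3 therefore gave no check of the genotype labels. None of the 7 LT-HSC markers (Kit, Ly6a, Slamf1, Ptprc, Procr, Mecom, Hlf) had a peak, nor had the 3 broadly active genes Actb, Gapdh and Eef1a1. Among markers of other cells that a fetal liver sort could hold, 0 of 4 hepatoblast genes (Alb, Afp, Ttr, Apoa1) and 0 of 3 erythroid genes (Klf1, Epor, Hbb-bt) had a peak, against 1 of 4 endothelial genes (Kdr, in 2 WT libraries) and 2 of 4 lymphoid genes (Pax5 in 6 libraries and Cd3e in KO 1). With 17.5% of all protein-coding genes called in at least 1 library, counts of 0 in lists this short are near the background. A peak list does not show expression, so these counts do not measure the purity of the sort.

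The sequences just upstream of 4 starts show what the marked and unmarked promoters looked like. Each run is 230 bases long, has its last base 21 bases upstream of the RefSeq start (of the GENCODE start for the distal Gata3 run), is written 5′ to 3′ along the gene's strand in GRCm38.p6, and has CpG dinucleotides in capitals. The main transcript of a gene is here the one GENCODE numbers first. The first 3 come from the RefSeq promoter table, which matched 3 of the 5 genes, and the last was read from the RefSeq genome of the same build. Gata4 and Gata6 are named only.
Gata2, upstream start, chr6:88193641-88193870, plus strand, in a peak in 0 of 6 libraries: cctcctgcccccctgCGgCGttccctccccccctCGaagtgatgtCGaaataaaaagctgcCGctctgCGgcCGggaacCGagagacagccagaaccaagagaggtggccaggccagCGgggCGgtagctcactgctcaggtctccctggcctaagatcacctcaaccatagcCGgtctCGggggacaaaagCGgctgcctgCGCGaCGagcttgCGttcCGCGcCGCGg
Gata3, proximal start, chr2:9878621-9878850, minus strand, in a peak in 0 of 6 libraries: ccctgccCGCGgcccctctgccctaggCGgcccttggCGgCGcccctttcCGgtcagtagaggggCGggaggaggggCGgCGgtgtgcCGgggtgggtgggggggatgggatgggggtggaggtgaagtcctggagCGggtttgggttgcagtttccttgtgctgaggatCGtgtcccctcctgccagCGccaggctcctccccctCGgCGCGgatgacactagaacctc
Gata5, chr2:180334700-180334929, minus strand, in a peak in 5 of 6 libraries: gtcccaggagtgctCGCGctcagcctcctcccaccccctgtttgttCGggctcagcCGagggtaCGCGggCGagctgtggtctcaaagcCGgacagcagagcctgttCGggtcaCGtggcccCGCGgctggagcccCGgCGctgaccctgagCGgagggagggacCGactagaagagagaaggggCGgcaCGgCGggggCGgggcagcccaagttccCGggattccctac
Gata3, distal start, chr2:9890055-9890284, minus strand, in a peak in 4 of 6 libraries: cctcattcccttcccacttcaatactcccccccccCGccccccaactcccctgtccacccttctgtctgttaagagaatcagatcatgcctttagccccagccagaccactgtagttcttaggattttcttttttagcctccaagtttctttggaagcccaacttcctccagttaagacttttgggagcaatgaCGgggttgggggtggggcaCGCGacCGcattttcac

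The Gata5 run held 21 CpGs and lay wholly inside a peak in WT 1, WT 2 and all 3 KO libraries. The Gata2 run held the same number, 21 CpGs, and no base of it was covered in any library. Over 20150 windows of this length at protein-coding genes the median was 9 CpGs, 82.7% had fewer than 21, and 4.51% overlapped a peak in at least 5 libraries. Of the 5973 windows with at least 16 CpGs, 16.6% overlapped a peak in any library, against 12.6% of all windows. In at least 5 libraries it was 7.52% of them. Most CpG-rich windows thus had no peak, as the Gata2 run had none. CpG number did not separate the marked promoter from the unmarked one in this pair.

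Within Gata3 the order of CpG content and marking was turned around. The proximal run, ahead of the start of the main transcript, had 16 CpGs and no peak, while the distal run had 5 CpGs and was covered over its whole length in WT 1, WT 2, KO 1 and KO 2. The GATA motif was searched on both strands as AGATAA and, with another first letter, as TGATAA, and in the forms with G at the end, AGATAG and then TGATAG. It occurred in none of these 4 runs and in 22.2% of the 20150 windows, which says only that these letters are not in the printed stretches. A second Gata2 window of the table, chr6:88198414-88198643, held 20 CpGs and no base under a peak. It lies inside the first exon of the main Gata2 transcript and is not printed.

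Gata2 (ENSMUSG00000015053.14, chr6:88193891-88207032, plus strand) has 4 annotated starts, 2 of them of protein-coding transcripts. Its 18.14 kb window was free of peaks in WT and KO alike. Distances put this in scale. The peak nearest to the upstream start lay 678.1, 40.73 and 679.8 kb away in WT 1, 2 and 3, and 39.13, 38.52 and 680.4 kb away in KO 1, 2 and 3. In WT 2, KO 1 and KO 2 the nearest peak belonged to the window of the neighbouring gene Dnajb8, a co-chaperone gene, whose body starts 15.2 kb beyond Gata2 and which was called in 3 libraries. Rpn1, the nearest protein-coding gene on the other side, had no peak, and neither had the long non-coding RNA gene Gm38708 that overlaps the window. Looser peak thresholds could not be tried, since the deposited lists hold called peaks alone.

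**Figure D1:**
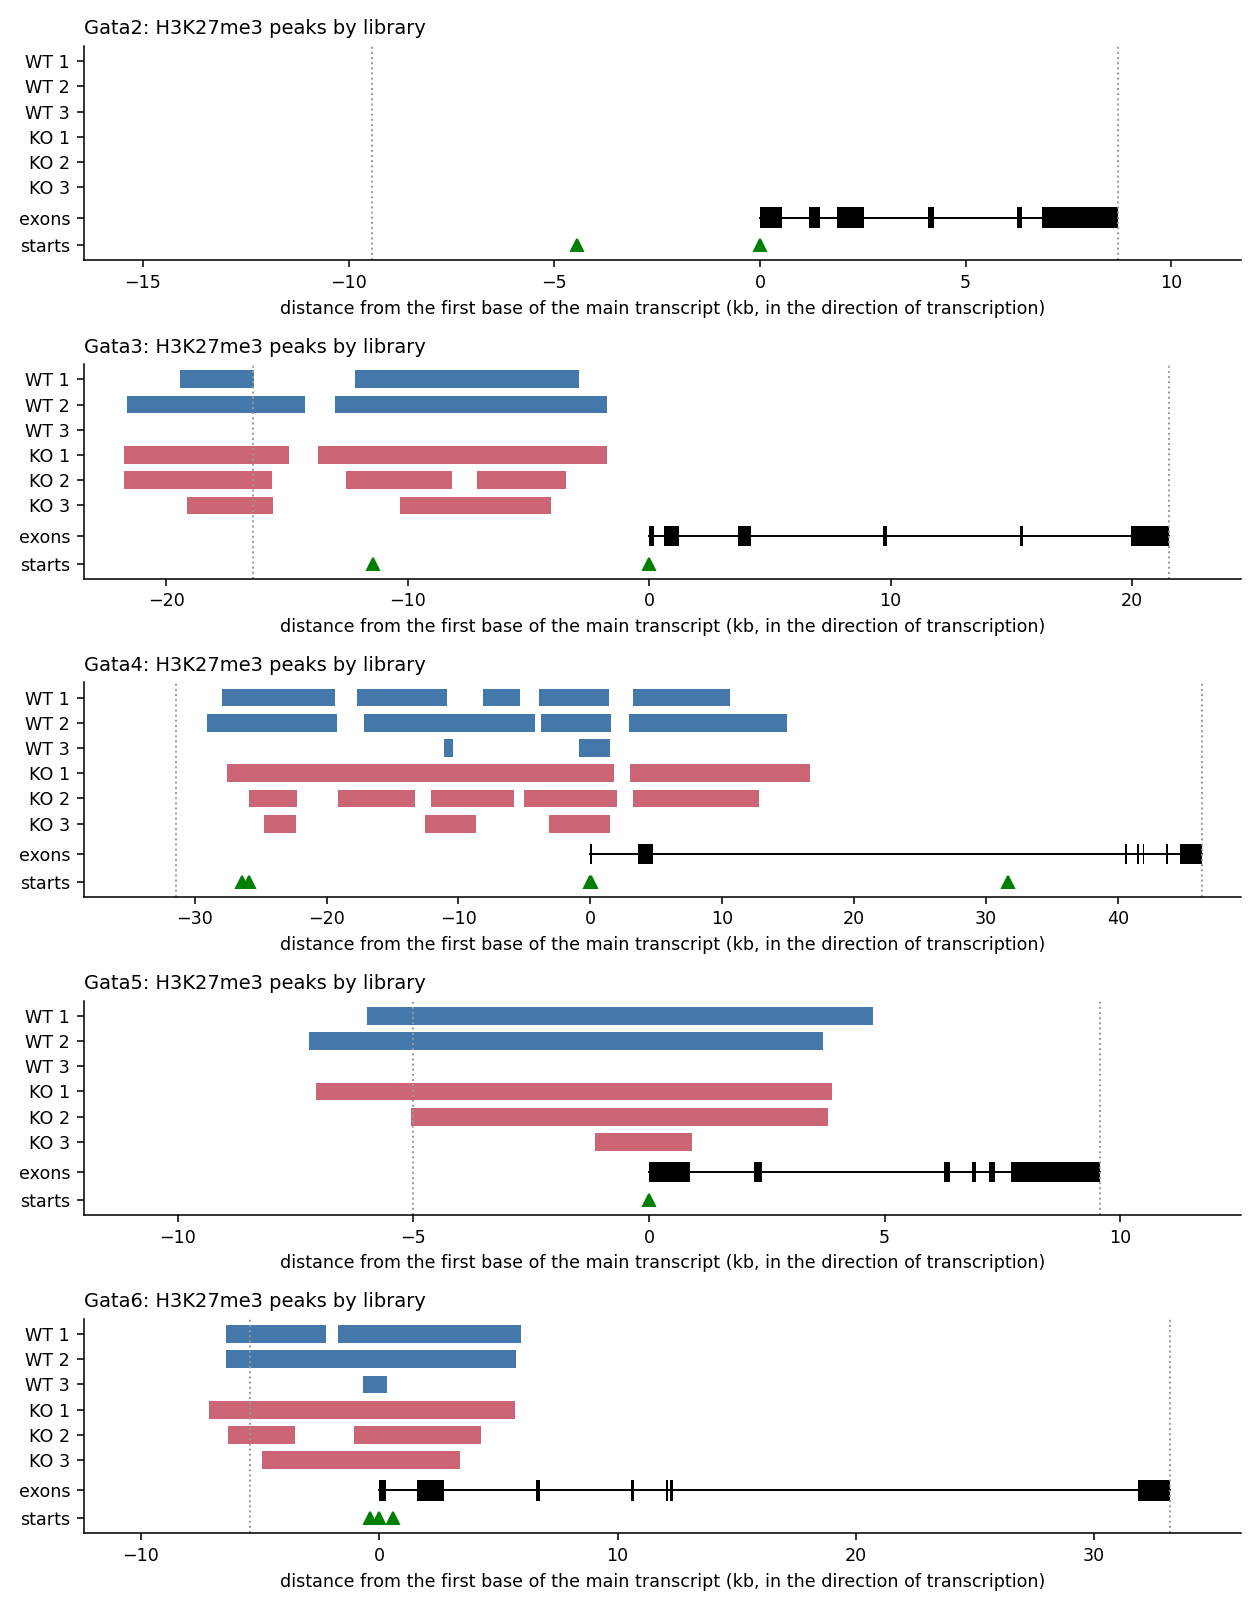
H3K27me3 peaks at the 5 genes in each library, 3 WT (blue bars) and 3 KO (red bars), against distance in kb from the first base of the gene's main transcript, with transcription running to the right. Black boxes are the exons of that transcript, green triangles the starts of protein-coding transcripts and dotted lines the limits of the gene window. Gata2 is empty, Gata3 is marked upstream of its proximal start and not over its exons, and Gata4, Gata5 and Gata6 are marked around the start and over the first 2 exons.

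Gata3 (ENSMUSG00000015619.10, chr2:9857078-9890034, minus strand, 6 annotated starts) was marked over its distal start and not over its main transcript. The length of its 37.96 kb window under peaks was 9.322, 13.46 and 0 kb in WT 1, 2 and 3, and 13.5, 8.877 and 7.087 kb in KO 1, 2 and 3. WT 2 and KO 1 were highest, WT 3 was lowest, and the genotypes overlapped. The proximal start at position 9878600 was outside every peak, and the closest peak edge came within 1.733 kb of it. None of the 6 exons of the main transcript was touched by a peak in any library.

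The distal protein-coding start of Gata3 at position 9890034 was inside a peak in 4 of 6 libraries, as were 6.07% of 54361 protein-coding starts in at least 4. The exception besides WT 3 was KO 3, whose nearest peak was 1.104 kb away. The first exon of the short transcript that begins there was covered over all of its 218 bp in those 4 libraries, and its other 2 exons were free of peaks. A stretch of 8.732 kb (chr2:9882057-9890788) was covered in at least 4 libraries, and within it 3.049 and 2.165 kb were covered in each of the 5 libraries with a peak. Further upstream a second block of 3.787 kb (chr2:9894234-9898020) was covered in at least 4 libraries. Between the blocks, 521 bp (chr2:9892334-9892854) were covered in none. Repeat-masked bases made up 14.4% of that gap and 15.5% of the joined Gata3 peaks, so the gap was not richer in repeats. The genes 4930412O13Rik and 9230102O04Rik, annotated as protein-coding, lie in the marked stretch and were called in the same number of libraries, 5, so the mark there cannot be assigned to Gata3 alone.

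Gata4 (ENSMUSG00000021944.15, chr14:63198922-63271692, minus strand) had the longest peak cover of the 5 genes. Peaks covered 30.91, 40.24 and 3.069 kb of its 77.77 kb window in WT 1, 2 and 3, and 42.97, 32.37 and 10.91 kb in KO 1, 2 and 3. The 50 bp libraries WT 3 and KO 3 were the lowest of their genotypes, and WT and KO overlapped. Its mean of 26.75 kb (SD 16.16, n = 6) stood at the 99.6th percentile of the mean covered lengths of the 3847 protein-coding genes with any peak, whose median was 2.543 kb. Longer genes can hold more peak length, and as a share of the window the Gata4 mean was 34.39%.

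The main start of Gata4, annotated at positions 63245248 and 63245271, was inside a peak in 6 of 6 libraries, against 1.1% of all protein-coding starts. A core of 2.231 kb (chr14:63243878-63246108) around it was covered in every library. The upstream starts at 63271124 and 63271692 were inside peaks in 4 and 3 libraries. The start at 63213607, near the 3′ part of the gene, was in none, and the closest peak to it was 15.01 kb away. Exon 1 of the main transcript was covered over its whole length in 6 libraries and exon 2, of 1110 bp, over its whole length in 4, while exons 3 to 7 were free of peaks in all 6. Exon 2 was the exon missed in WT 3 and KO 3.

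The Gata4 domain was broken up differently from library to library. It consisted of 5, 4 and 2 peaks in WT 1, 2 and 3, and of 2, 5 and 3 peaks in KO 1, 2 and 3. In KO 1 a single peak of 29.31 kb (chr14:63243491-63272798) spanned the main start and both upstream starts. That peak was the 6th widest of the library. The widest Gata4 peaks elsewhere were 8.573, 13.0 and 2.339 kb in WT 1, 2 and 3, and 9.519 and 4.641 kb in KO 2 and 3. A gap of 901 bp (chr14:63242359-63243259) between exons 1 and 2 was uncovered in every library, including KO 1. Repeat-masked bases made up 6.55% of it and 18.7% of the joined Gata4 peaks. When peaks of all libraries were merged, the block with the main start was 31.11 kb wide, 24th of the 717 merged regions called in all 6 libraries, whose median width was 9.88 kb.

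Gata5 (ENSMUSG00000015627.5, chr2:180325133-180334699, minus strand) is the shortest of the 5 genes and had the largest mean covered share. The covered length was 9.751, 8.687 and 0 kb in WT 1, 2 and 3, and 8.894, 8.789 and 2.054 kb in KO 1, 2 and 3. The 4 libraries with 75 bp reads lay between 8.687 and 9.751 kb, WT 3 and KO 3 were below them, and the genotypes overlapped. In those 4 libraries the whole promoter window of 5.101 kb was under 1 peak. The peak ran past exon 1 (874 bp) and exon 2 (176 bp) and stopped before exons 3 to 6, which were free of peaks in 6 of 6 libraries. KO 3 kept a single peak of 2.054 kb around the start. The antisense gene Gata5os overlaps the marked stretch and was called in the same 5 libraries, and CUT&Tag does not tell the strands apart.

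Gata6 (ENSMUSG00000005836.10, chr18:11052064-11085635, plus strand) had peaks at its 5′ end and none that reached exon 3. Peaks covered 10.86, 11.14 and 1.011 kb of the window in WT 1, 2 and 3, and 11.12, 7.187 and 8.286 kb in KO 1, 2 and 3. WT 3 was far below the other 5 libraries, the genotypes overlapped, and KO 3 was not low here: among the 3 KO libraries it was the middle one. Its first start at position 11052064 was inside a peak in 6 of 6 libraries. The 1.011 kb peak of WT 3 was also the stretch shared by all 6 libraries (chr18:11051773-11052783), and it held 3 annotated starts. Exon 1 of the main transcript (274 bp) was wholly covered in 6 libraries and exon 2 (1154 bp) in 5, and exons 3 to 7 in none. The antisense transcript gene 1010001N08Rik overlaps the start and was called in 6 libraries.

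**Figure D2:**
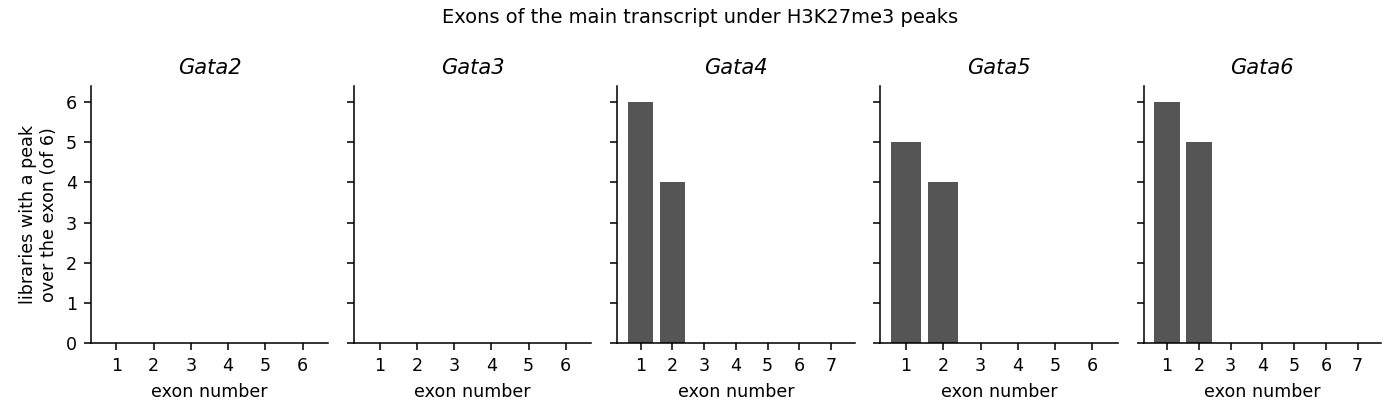
Number of libraries, of 6, in which an H3K27me3 peak overlapped each exon of the main transcript of the 5 genes, with exon number on the horizontal axis counted from the 5′ end. Gata2 and Gata3 have no bar, and the bars of Gata4, Gata5 and Gata6 stop after exon 2.

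The peaks of Gata4, Gata5 and Gata6 stopped at the same exon number: they reached exon 2, and none touched exon 3 or any later exon. The exons are not matched one to one between the genes, since the annotated start codon of the main transcript lies in exon 2 of Gata4 and Gata6 and in exon 1 of Gata5. The exon with the start codon was under a peak at that codon in 4 libraries for Gata4 and in 5 libraries each for Gata5 and Gata6. In Gata2 and Gata3, whose start codons lie in exon 2, it was under a peak in 0 of 6. This is a description of related genes in the same 6 libraries. The share of all annotated exons or start codons under a peak was not computed, so these counts have no background beside them.

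The position of the highest signal moved between libraries. Negative distances are upstream of the nearest annotated start. In the peak over the Gata6 promoter the maximum lay at -130, 106 and 3 bp in WT 1, 2 and 3 and at 178, -84 and -107 bp in KO 1, 2 and 3. Gata6 has 6 annotated starts, so the nearest one was not the same throughout: the WT 2 and KO 1 distances are to a non-coding start at position 11055038, downstream of the start of the main transcript. In Gata5, with 1 start, it lay at 776 and -716 bp in WT 1 and 2 and at -1163, 2136 and 274 bp in KO 1, 2 and 3. Its place moved from side to side of the start with no order by genotype.

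The total signal of a peak is the coverage summed over its bases, and it is given here in units of the median peak of the same library, because the deposited values are not scaled to depth. As a sum over bases it grows with width, and a peak that reaches past the gene window counts whole. Summed over the Gata4 peaks it was 10.76, 14.64 and 2.172 library medians in WT 1, 2 and 3 and 14.6, 10.1 and 3.669 in KO 1, 2 and 3. Gata4 was highest of the 5 genes in every library, with WT 3 and KO 3 at the low end.

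The other 3 marked genes had fewer library medians of signal. Gata3 had 4.057, 6.083 and 0 in WT 1, 2 and 3 and 6.735, 4.683 and 3.24 in KO 1, 2 and 3. Gata6 had 3.805, 3.908 and 0.8278 in WT and 4.476, 3.012 and 3.581 in KO. Gata5 had 4.057, 3.765 and 0 in WT and 3.931, 3.209 and 0.6502 in KO, so that in KO 3 its peak was weaker than the median peak of the library. WT and KO overlapped at each of these genes; the share of all genes without such overlap was not computed for summed signal.

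The height of the mark differed less between genes than its extent did. Mean coverage per base in the Gata6 peaks was 3.952, 4.056 and 3.523 in WT 1, 2 and 3. In KO 1, 2 and 3 it was 4.872, 4.685 and 4.494. It was above the median of this measure over all peaks of the same library in 6 of 6. For Gata4 mean coverage reached 4.304, 4.595 and 3.045 for WT 1, 2 and 3 against 4.746, 3.938 and 3.496 for KO 1, 2 and 3. It was above the median over peaks in 5 of 6, KO 3 (median 3.813 per base) being the exception. For Gata3 and Gata5 it was above that median in 4 of the 5 libraries with a peak, again with KO 3 below. Coverage per base is not scaled to depth, so the comparison holds within a library.

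**Figure D3:**
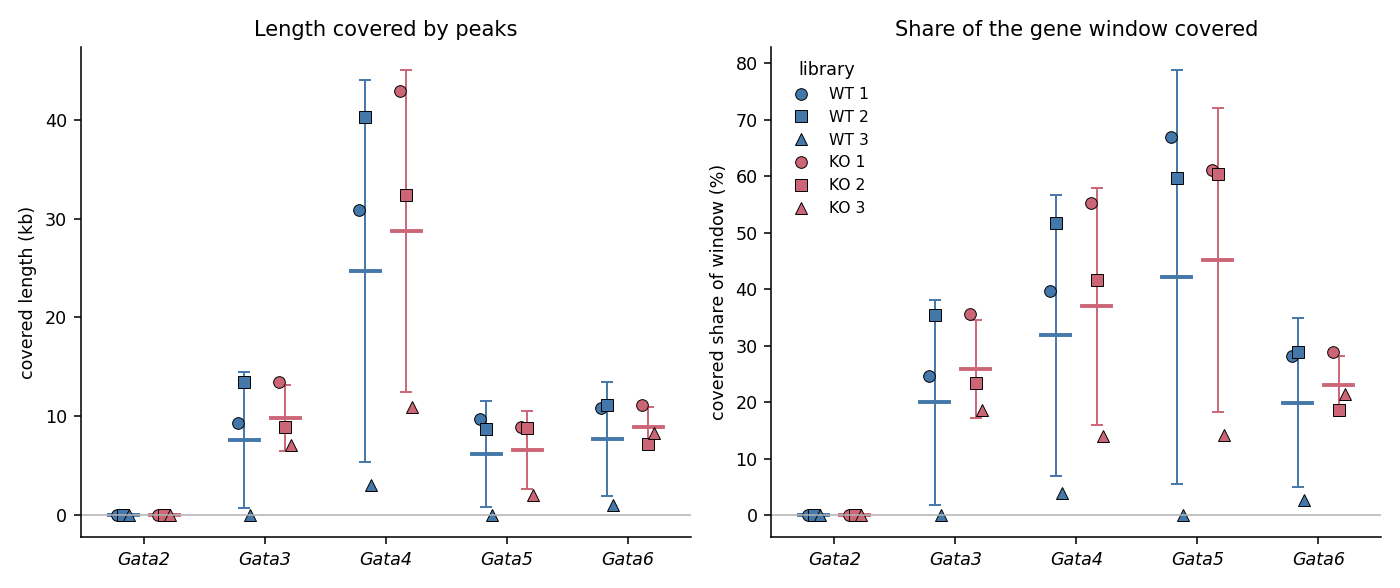
Length of the gene window under H3K27me3 peaks in kb (left) and its share of the window in percent (right) for the 5 genes, WT in blue and KO in red. Symbols are single libraries (circle, square and triangle for replicates 1, 2 and 3), horizontal bars the mean and error bars the SD (n = 3). Gata4 is longest, Gata5 has the largest mean share, and the triangles, libraries of 50 bp reads, are lowest in most groups.

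Ordered by mean covered length over the 6 libraries, the genes ran Gata4, Gata3, Gata6, Gata5 and Gata2. Gata4 (26.75 kb) exceeded Gata3 (8.707 kb, SD 4.987) in 6 of 6 libraries. Gata3 and Gata6 (8.268 kb, SD 3.923) did not differ beyond their spread: the mean difference was 0.4403 kb with an SD of 1.874, and Gata3 was the longer in 3 of 6. Gata6 exceeded Gata5 (6.362 kb, SD 4.201) in 5 of 6 libraries by a mean of 1.905 kb (SD 2.564), a difference smaller than its spread. By share of the window the order was Gata5 (43.68%), Gata4 (34.39%), Gata3 (22.94%), Gata6 (21.44%) and Gata2 (0%). Gata5 exceeded Gata4 in 5 of 6 libraries by a mean of 9.287 percentage points (SD 11.69), Gata4 exceeded Gata3 in 5 of 6 by 11.45 (SD 9.66), and Gata3 exceeded Gata6 in 3 of 6 by 1.507 (SD 5.007). The place of Gata4 and Gata5 thus depended on whether length or share was used, although by share they did not differ beyond their spread, and Gata2 was last on both scales. It also depended on the window: within promoter windows alone the mean covered length was 8.268 kb at Gata6, 5.477 kb at Gata3, 5.105 kb at Gata4 and 3.608 kb at Gata5. Promoter windows differ in length with the number of starts. That of Gata5, with 1 start, is 5.101 kb long, so its covered length could not exceed this.

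WT and KO libraries were then compared, since the study asked whether loss of IκBα changes H3K27me3 in LT-HSCs. Mean covered length was 7.594 kb (SD 6.894, n = 3) in WT and 9.82 kb (SD 3.307, n = 3) in KO at Gata3, and 24.74 kb (SD 19.34) and 28.75 kb (SD 16.33) at Gata4. It was 6.146 kb (SD 5.349) in WT and 6.579 kb (SD 3.919) in KO at Gata5, and 7.673 kb (SD 5.771) and 8.864 kb (SD 2.028) at Gata6. Each KO mean was higher than its WT mean by less than the SD of either group. In the exact two-sided permutation test over the 20 assignments of libraries to genotypes, p was 0.8 for Gata3, 0.7 for Gata4, 0.8 for Gata5 and 0.9 for Gata6, and the Benjamini-Hochberg adjusted p over the 5657 annotated genes with a peak was 1.0 for each.

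The permutation test cannot go below p = 0.1 with 3 libraries against 3, and 0.0% of the 5657 genes passed an adjusted p of 0.05, which is out of reach for this test. Of these genes 1.59% had covered lengths in the KO libraries that were all above those of the WT libraries, and 0.053% had them all below. None of the 5 GATA genes was in either group. Within same-numbered pairs, KO was higher in 2 of 3 pairs at Gata3, Gata4, Gata5 and Gata6 alike, and the exact sign-flip p was 0.75 for each, where 0.25 is the smallest that 3 pairs allow.

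At Gata3, Gata5 and Gata6 the direction rested on the third pair. Between WT 3 and KO 3 the covered length went from 0 to 7.087 kb at Gata3, from 3.069 to 10.91 kb at Gata4, from 0 to 2.054 kb at Gata5 and from 1.011 to 8.286 kb at Gata6. Without that pair, in the libraries with 75 bp reads, KO minus WT was -0.204 kb at Gata3, 2.097 kb at Gata4, -0.3775 kb at Gata5 and -1.851 kb at Gata6. Without WT 3 alone it was -1.571, -6.823, -2.64 and -2.14 kb in the same order. WT 3 had fewer peaks than KO 3 genome-wide (1047 against 2325) and 1.898 against 7.609 Mb under peaks, and the part of this in the differences at the GATA genes was not tested.

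Signal was compared over the 717 merged regions called in all 6 libraries with limma, on log2 total signal centred on the median of each library. The main Gata4 block stood at 1.97, 1.99 and 1.0 above the library median on this log2 scale in WT 1, 2 and 3 and at 2.12, 1.60 and 1.25 in KO 1, 2 and 3. The KO minus WT difference was 0.0033 (SE 0.39, 95% interval -0.85 to 0.86, limma adjusted p = 0.999). The groups overlapped, and the 2 libraries of 50 bp reads were the lowest.

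The Gata6 region stood at 0.82, 0.53 and -0.39 in WT 1, 2 and 3 and at 0.77, 0.36 and 1.21 in KO 1, 2 and 3. The difference was 0.46 (SE 0.40, 95% interval -0.42 to 1.35, limma adjusted p = 0.992). In the libraries of 75 bp reads it was -0.09 (SE 0.34). KO 3 was the highest and WT 3 the lowest, with the other 4 between them. Limma called 0 of the 717 regions (0.0%) at an adjusted p of 0.05, and 8 had an unadjusted p under 0.05, 4 in each direction. This balance changed with the fit. Without WT 3, 38 of 1620 regions were higher in KO at that p and 17 lower. Over 3624 regions called in 3 or more libraries, 4 were higher and 52 lower. The intervals leave room for a difference in either direction at the main Gata4 block and the Gata6 region.

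The Gata3 and Gata5 regions were not called in WT 3 and entered the fit when that library was left out, which raised the number of regions to 1620. KO minus WT was -0.05 (SE 0.32) for the Gata3 block at the distal start, 0.57 (SE 0.38) for its upstream block and -0.75 (SE 0.51) for Gata5, with unadjusted limma p-values of 0.89, 0.17 and 0.17. In the libraries of 75 bp reads, which leave out KO 3 as well, the Gata5 difference was -0.16 (SE 0.34). None passed the adjusted threshold. When regions called in 3 or more libraries were fitted, with WT 3 set to its smallest called signal, the Gata3 differences were 0.30 (SE 0.46) and 0.40 (SE 0.46) and the Gata5 difference was -0.37 (SE 0.51). The second Gata4 block, over exon 2, had no peak in WT 3 and KO 3 and was outside the main fit. With both libraries set in the same way its difference was -0.26 (SE 0.49). In the libraries of 75 bp reads it was 0.016 (SE 0.32).

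The genes that work with the GATA factors were placed beside them. Gata1, the erythroid and megakaryocyte member of the family, and 5 further genes with GATA-type zinc fingers (Trps1, Gatad1, Gatad2a, Gatad2b and Zglp1) had a peak in 0 of 6 libraries, as Gata2 did. Of 10 genes of the blood transcription factor network, 9 had no peak in any library: the GATA cofactor gene Zfpm1, the partners Tal1, Lmo2, Lyl1 and Ldb1, and Runx1, Fli1, Spi1 and Cbfa2t3. Most protein-coding genes likewise had no peak (17.5% had one in at least 1 library), so these counts are near the background. The exception was Erg, an ETS factor gene of stem cells and endothelium, with 5.505, 2.493 and 0 kb under peaks in WT 1, 2 and 3 and 6.952, 2.162 and 2.43 kb in KO 1, 2 and 3. These lengths came to a mean of 1.401% of the Erg window, and the gene was called in 5 libraries.

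The heart and endoderm partners were mostly marked, as Gata4 and Gata6 were. Of 14 such genes 11 had a peak in at least 1 library and 6 in all 6, beside 17.5% and 3.47% of all protein-coding genes, with a median mean covered length of 6.62 kb, where the median over all protein-coding genes was 0 kb. The 6 were the heart genes Nkx2-5, Tbx20 and Hand1, the endoderm genes Foxa1 and Foxa2, and Eomes, which acts in both mesoderm and endoderm. Foxa1, a pioneer factor of endoderm, had 8.071, 9.773 and 4.126 kb in WT 1, 2 and 3 and 10.25, 11.09 and 8.638 kb in KO 1, 2 and 3. Nkx2-5, which binds DNA together with GATA4 in the heart, had 9.722, 8.815 and 0.791 kb in WT and 10.15, 8.702 and 6.293 kb in KO. WT 3 was again lowest at both, and the genotypes overlapped.

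The heart genes Tbx5, Hand2 and Isl1 and the endoderm gene Sox17 had a peak in the same 5 libraries as Gata3 and Gata5, all but WT 3. Zfpm2, the cofactor of GATA4 in the heart and counterpart of Zfpm1, had a peak in KO 2 alone, covering 2.45 kb of its window. Mef2c, Foxa3 and Hnf4a had none. In no gene of these 3 lists were the KO libraries all above or all below the WT libraries, which was also rare over all 5657 genes with a peak (1.59% and 0.053%).

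**Figure D4:**
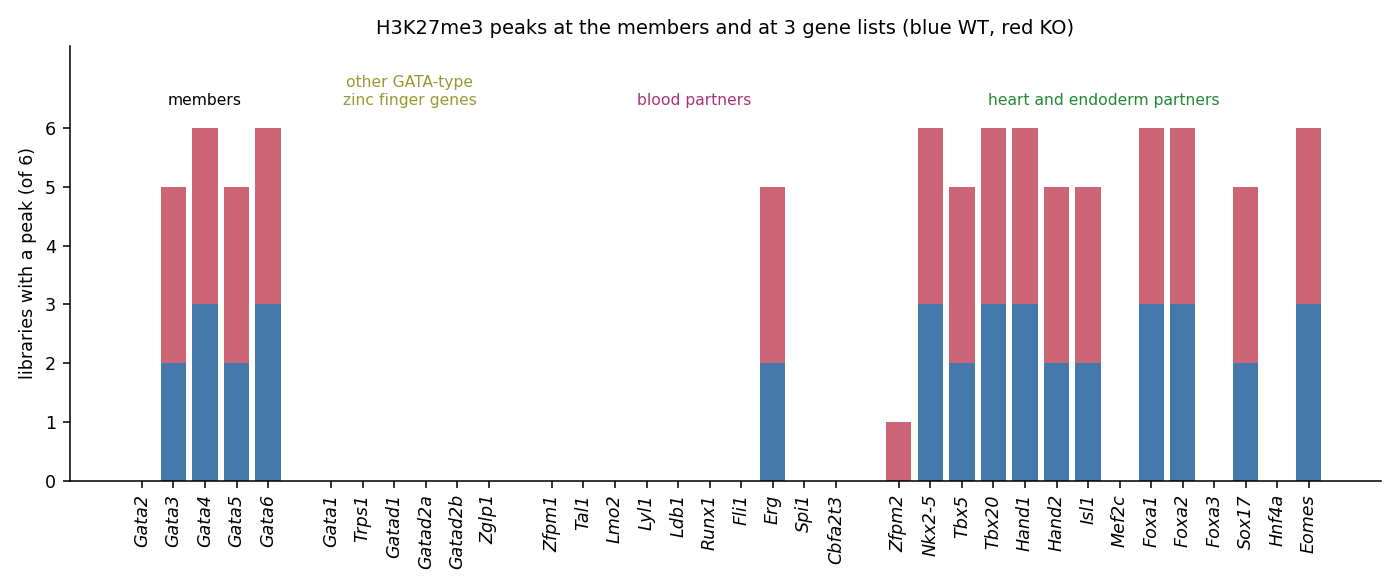
Number of libraries, of 6, with an H3K27me3 peak in the promoter or body of the 5 GATA genes and of the genes of 3 lists, with WT libraries in blue and KO libraries in red. The blood partners are empty except for Erg, and 11 of the 14 heart and endoderm partners have a bar, 6 of them at 6.

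The nearest protein-coding genes along the chromosome mostly had no peak, as most protein-coding genes had none (17.5% had one in at least 1 library). Neil2, a DNA repair gene 5.07 kb from the Gata4 gene, had no peak, and Blk, a B cell kinase gene 101.0 kb away on the other side, had one in 1 library. Rbbp8nl and Slco4a1 beside Gata5 and Mib1 and Rbbp8 beside Gata6 had none. For Gata3, Taf3 had none and Celf2 had a peak in 1 library.

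Some genes matched the members in extent over the 6 libraries. By mean absolute difference in covered length, the closest protein-coding gene to Gata3 was Kbtbd11 (0.468 kb), followed by the homeobox gene Hmx2 and by Prdm13. Closest to Gata4 were Celf4 (2.43 kb), Shank1 and Hoxc5, closest to Gata5 Dscam (0.407 kb), Cbln1 and the forkhead gene Foxf1, and closest to Gata6 Kcnc4 (0.74 kb), the homeobox gene Cdx2 and Tfap2c. The 6 libraries share their depth across all genes, and this likeness is a description without a test.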

How the data were processed

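H3K27me3 CUT&Tag was done on sorted E14.5 fetal liver LT-HSCs, 3 IκBα WT and 3 IκBα KO libraries out of 10 samples; the 4 IκBα CUT&Tag samples were not analysed here. According to the methods and the submitters' processing notes, reads were trimmed with Trim Galore 0.6.6, aligned to GRCm38 with Bowtie2 2.4.4, freed of multi-mapped, low-quality and duplicate reads, turned into coverage with bedtools 2.30, and peaks were called per library by SEACR 1.3 (stringent, no IgG control), keeping the top 0.5% of regions. Blacklisted regions were removed, with a list not given in the sources used here. The deposited peak files give total and maximum signal (summed and highest coverage) per peak, not scaled to depth. The study's read totals per library were not used here; by them the 50 bp pair was the least deeply sequenced. Peaks numbered 1047 to 6013 per library, which does not stand for depth, and a peak list ranked within its own library makes the extent depend on depth and background.

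Peaks were joined to GENCODE M21 gene windows (5 kb upstream to 100 bp downstream of any TSS, plus the body), and covered length was tested with an exact permutation test in Python 3.11.15. Peaks were merged over libraries by at least 1 bp. Log2 total signal was centred in each library on its median over the 717 regions. It was tested with limma 3.58.1 in R 4.3.3, with Benjamini-Hochberg adjustment. Both tests were checked on simulated data. In the limma check 200 of the 717 regions were changed. At a change of 1 log2 unit 24.5% of them were recovered, and at 2 units 90.5%, so most 1-unit changes would be missed. Sequences are from RefSeq, GRCm38.p6. Alternatives left out single libraries, kept the 75 bp libraries, changed the peak threshold, window and overlap, and changed scaling, signal measure, region set, trend and replicate block.

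Same-numbered WT and KO libraries deviated together over the 717 regions (r = 0.272, 0.314 and 0.469 for numbers 1, 2 and 3). For pairs of different numbers r ran from -0.442 to 0.268, highest for WT 2 with KO 1. Each same-numbered r was above 0.1, so the numbers were taken to pair the libraries. WT 2 with KO 1 also passed 0.1, so this check does not tell numbers 1 and 2 apart. Numbers 1 and 2 had 75 bp reads and number 3 had 50 bp reads. The members and the gene lists were chosen with earlier results of these data known. All 5 members are named. In the endothelial and lymphoid lists the genes with a peak are named, and in the other lists also those without one. Likeness is given by the 3 protein-coding genes nearest in covered length. Some genes of the lists are not reported here.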

Additional observations from a re-analysis of the deposited data

How the results depend on the processing

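The 4 genes with a peak in at least 1 library kept one under every alternative tried for the gene calls; the alternatives remove libraries, peaks or parts of the window, so they could not have given Gata2 a peak. The number of genes with a peak in every library, 2, was 4 in the 75 bp libraries, 1 with peaks above the library median alone, and between 2 and 4 when single libraries were left out, with 4 reached without WT 3. Mean covered length when single libraries were left out ran from 7.749 to 10.45 kb for Gata3, 23.5 to 31.48 kb for Gata4, 5.685 to 7.635 kb for Gata5 and 7.693 to 9.72 kb for Gata6; with promoter windows alone it was 5.477 kb for Gata3, 5.105 kb for Gata4 and 3.608 kb for Gata5, and with the gene body alone 2.839 kb for Gata5 and 4.633 kb for Gata6. With coding starts and 1 kb either side plus the body it was 3.672 kb for Gata5 and 5.455 kb for Gata6. No gene passed the permutation test and no region the limma test under any alternative, and the permutation test could not have been passed. The replicate block changed no call: 0 genes and 0 regions passed. With it 25 regions had an unadjusted limma p under 0.05 in place of 8, 8 of them higher and 17 lower in KO.

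The sign of KO minus WT at the members was not stable, and the cause was not tested. Covered length turned lower in KO in the 75 bp libraries at Gata3 (-0.204 kb), Gata5 (-0.3775 kb) and Gata6 (-1.851 kb), with an equal number of top peaks at Gata4 (-0.3013 kb) and Gata5 (-0.2517 kb), and with peaks above the library median at Gata5 (-0.2517 kb). With single libraries left out it ran from -1.571 to 5.159 kb at Gata3, -6.823 to 12.93 kb at Gata4, -2.64 to 2.696 kb at Gata5 and -2.14 to 2.927 kb at Gata6. It was below 0 without WT 3 at each of these, without KO 1 at Gata4 (-3.097 kb) and Gata5 (-0.7245 kb), and without KO 2 at Gata5 (-0.672 kb). The log2 signal difference was below 0 at Gata4 in the 75 bp libraries (-0.11), by maximum signal (-0.35) and per covered base (-0.18), and at Gata6 in the 75 bp libraries (-0.095) and by maximum signal (-0.23); with single libraries left out it ran from -0.31 (without WT 3) to 0.23 at Gata4, with -0.23 without KO 1, and from 0.12 to 0.72 at Gata6. Peaks called per library limit all of this, since nothing is known below each library's threshold.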
